A study of Mus musculus with 4 samples.

Results

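The 9 genes described here encode muscarinic and nicotinic acetylcholine receptors: the muscarinic receptors Chrm1 to Chrm5, and the nicotinic subunits Chrna4, Chrna5, Chrna7 and Chrnb2. They are the rows of the deposited table that carry these gene names, 9 of 28193 genes, and every one of the 9 passed the filter of more than 5 counts in each library. fosTRAP-seq measured them as RNA bound to HA-tagged ribosomes, where the tag sits on the ribosomal protein Rpl22 and is switched on by Cre in neurons whose c-Fos promoter was active while 4-OHT was present. All male mice, 3 to 5 months old, were sleep deprived for 5 h on day 0, when the tag was laid down, and on day 7 a second deprivation of 5 h was given to the SD mice and not to the NSD mice. The NSD mice therefore also carry the tagging, the drug and the first deprivation, and the comparison is of the second deprivation within cells tagged by the first. The sample labels name dorsal hippocampus with the genotype cFos-Cre:Ribotag, and the study's methods name CA1 dissected at ZT5 from C57BL/6J mice injected with viral vectors for the Cre and the tagged Rpl22. Each library came from the pooled tissue of 5 mice, which makes n = 2 libraries from 10 mice in a group, and a value after a ± sign is the standard deviation (SD) between these pools. The labels give a batch number that equals the replicate number, with 1 NSD and 1 SD library in each of the 2 batches.

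Acetylcholine reaches the hippocampus mainly from neurons of the medial septum, whose release is high in wakefulness and in REM sleep. Muscarinic receptors are G protein-coupled: M1, M3 and M5 act through Gq, phospholipase C and calcium release, and M2 and M4 act through Gi/o to lower cyclic AMP, open GIRK potassium channels and reduce transmitter release. Nicotinic receptors are cation channels of 5 subunits, and the common brain types are the high-affinity channel of alpha4 and beta2 subunits, which can include alpha5 as an accessory subunit, and the alpha7 channel, which is highly permeable to calcium. In CA1, M1 is the main muscarinic receptor of pyramidal neurons, while M2 and the nicotinic channels are best known from interneurons and from axon terminals.

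The libraries held 153511705 to 195910235 estimated counts, and TMM scaling factors lay between 0.965 and 1.02. Markers of the labelled tissue were present. Mpped1, the most abundant of 6 CA1 pyramidal markers, had 437 to 504 CPM (estimated counts per fixed library size, after TMM scaling), and Camk2a, a kinase of excitatory neurons, had 4090 to 4379 CPM. Markers of other cell types were present as well: Gad1, which makes GABA in interneurons, had 311 to 332 CPM, Mbp, a myelin protein of oligodendrocytes, had 880 to 1073 CPM, and Gfap of astrocytes had 152 to 187 CPM. The defining genes of cholinergic neurons were near 0, with Chat at 0.0387 to 0.101 CPM and Slc18a3, the vesicular acetylcholine transporter, at 0.0221 to 0.121 CPM. No library without immunoprecipitation was analysed here, so the levels below describe the precipitated RNA of these pools, and fewer cells of a type cannot be told apart from less RNA per cell.

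Levels of different genes were compared as CPM per kilobase of merged exons. Chrm1 ranked first in each of the 4 libraries, with 34.7, 38.0, 31.5 and 34.2 CPM per kilobase in NSD 1, NSD 2, SD 1 and SD 2, a mean level above that of 95.6% of the 15533 protein-coding genes with a length. Chrna4 followed with 19.7, 19.6, 23.1 and 24.1 CPM per kilobase and Chrm3 with 17.6, 21.0, 16.8 and 19.7, and these ranges overlapped, so that the order of Chrna4 and Chrm3 was not resolved beyond the spread of the libraries. Chrnb2 came next at 11.1 to 12.7 CPM per kilobase and Chrm4 at 8.35 to 10.2, each clear of its neighbours.

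The remaining genes formed a lower group. Chrm2 had 2.97 to 3.57 CPM per kilobase, above every value of Chrna5 (2.26 to 2.42). Chrna7 (1.97 to 2.33) overlapped both Chrna5 and Chrm5 (1.19 to 2.08), which did not overlap each other, and Chrm5 had the lowest mean level of the 9. From Chrm1 to Chrm5 the mean levels ran from 34.6 to 1.74 CPM per kilobase.

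**Figure D1:**
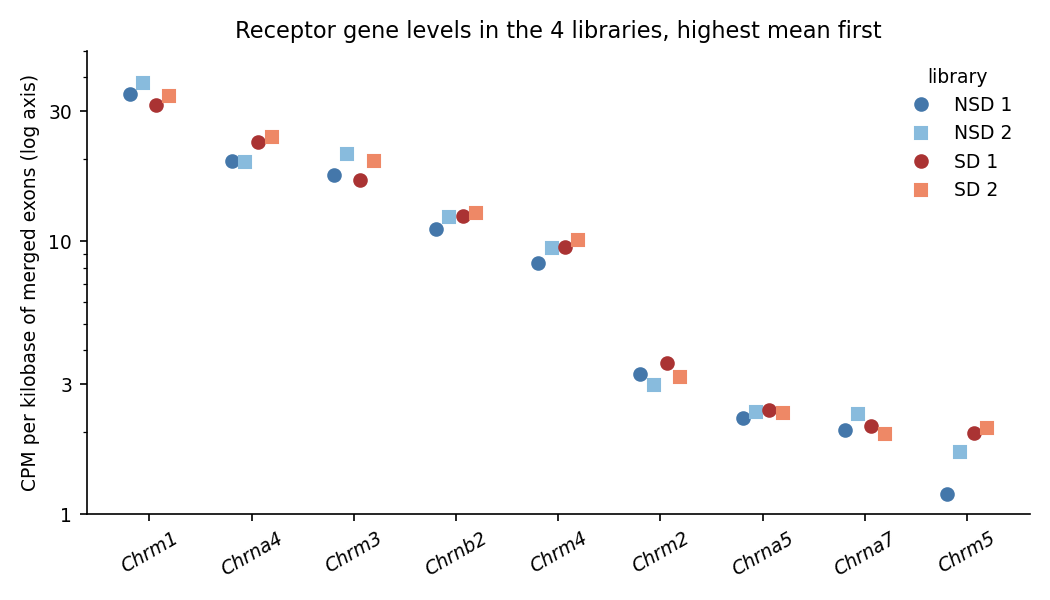
Level of each receptor gene in the 4 libraries as CPM per kilobase of merged exons on a log axis, with circles for batch 1, squares for batch 2, blue for NSD and red for SD. Chrm1 lies at 31.5 to 38.0 in every library, and at the low end Chrna7 overlaps both Chrna5 and Chrm5.

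The gene models limit this order. The models of Chrm4 and Chrm5 hold 1 transcript each that ends with its coding sequence (1440 and 1599 bases), while the other 7 genes have merged exons of 5228 to 10208 bases. Reads from untranslated exons of Chrm4 and Chrm5 are outside these models. With the coding length as the divisor for every gene, Chrm4 stood at 0.513 to 0.640 times the level of Chrm2, against 2.56 to 3.19 times with merged exons, so the order of the Gi/o-coupled pair turned with the length used. The counts of the other 7 genes include reads from untranslated exons. The coding length therefore raises their levels and shares relative to Chrm4 and Chrm5 by construction. Chrm1 ranked 1, Chrnb2 4 and Chrm5 9 with merged exons, the longest transcript or the coding length, and Chrm3 moved ahead of Chrna4 with both of the other lengths.

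Within the muscarinic family, Chrm1 made up 53.3%, 52.0%, 49.7% and 49.3% of the summed level per kilobase in NSD 1, NSD 2, SD 1 and SD 2, so that the SD shares were the lower pair. Chrm3 held 26.5% to 28.7%, Chrm4 12.9% to 15.0%, Chrm2 4.06% to 5.62% and Chrm5 1.83% to 3.13%. The Gq-coupled Chrm1, Chrm3 and Chrm5 together accounted for 82.1% and 83.0% in the NSD libraries and for 79.3% and 80.8% in the SD libraries. Of the 4 nicotinic genes, Chrna4 accounted for 56.1%, 53.6%, 57.8% and 58.5% of the summed level in the same order of libraries, the SD shares being the higher pair. Chrnb2 held 30.9% to 33.5%, Chrna5 5.70% to 6.49% and Chrna7 4.79% to 6.36%. The shares depend on the length used: with the coding length the mean share over the 4 libraries was 3.20% for Chrm4 against 13.9% with merged exons, 0.595% against 2.57% for Chrm5, 68.1% against 51.1% for Chrm1, 11.0% against 5.55% for Chrna7 and 44.9% against 56.5% for Chrna4. These shares are descriptions of n = 2 libraries per group and were not tested.

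**Figure D2:**
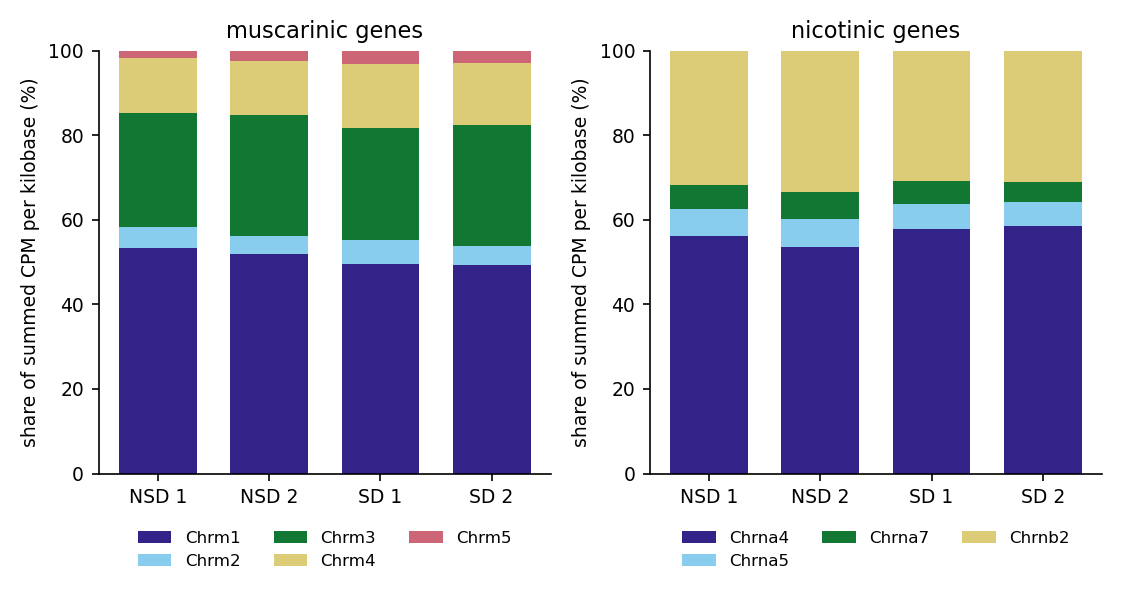
Share of each gene in the summed CPM per kilobase of merged exons of the 5 muscarinic genes (left) and the 4 nicotinic genes (right), 1 bar per library. Chrm1 holds 49.3% to 53.3% of the muscarinic sum and Chrna4 53.6% to 58.5% of the nicotinic sum; with the coding length these mean shares become 68.1% and 44.9%.

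None of the 9 receptor genes was called changed by the second sleep deprivation, with calls made by edgeR's quasi-likelihood test at an adjusted p under 0.05 together with a fold change of more than 1.2. Over all 22338 genes tested, 692 (3.10%) were called. At an unadjusted p under 0.05, 1 of the 9 passed in edgeR (Chrna4), beside 19.1% of all genes, and DESeq2 called 1 of the 9 (Chrna4), beside 8.79% of all genes. With the batch number as a replicate block in the edgeR fit, 0 of the 9 were called beside 11.5% of all genes, and 1 (Chrna4) had an adjusted p under 0.05 when no fold change was required, beside 13.8% of all genes. The groups did not overlap for 5 of the 9: the SD pair was the higher one for 4 (Chrm4, Chrm5, Chrna4 and Chrnb2), as it was for 22.0% of all genes, and the lower one for 1 (Chrm1), as for 27.5% of all genes. The median log2 fold change of the 9 was 0.10. Over all genes tested it was -0.02, and over the 15551 protein-coding genes among them it was 0.02.

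**Figure D3:**
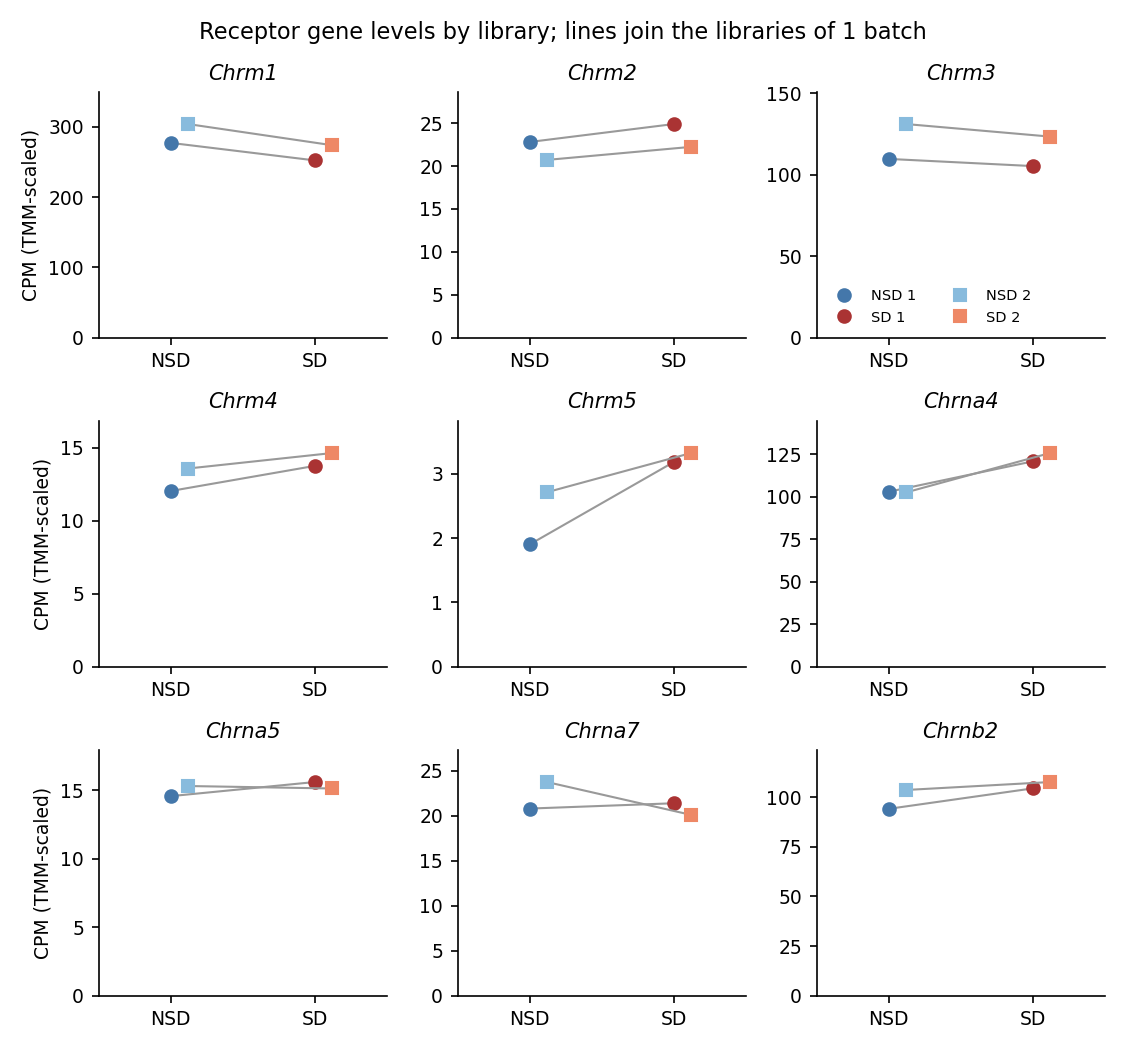
CPM of each receptor gene in the NSD and SD libraries, on linear axes from 0, with grey lines joining the 2 libraries of a batch. Both lines rise for Chrm2, Chrm4, Chrm5, Chrna4 and Chrnb2, both fall for Chrm1 and Chrm3, and the lines go in opposite directions for Chrna5 and Chrna7.

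Chrm1 (ENSMUSG00000032773) encodes M1 and spans chr19:8641153-8660951 on the plus strand of GRCm39. NSD 1 and NSD 2 gave 277 and 304 CPM and SD 1 and SD 2 gave 252 and 274 CPM, with means of 290 ± 19.0 (SD, n = 2) and 263 ± 15.3. The highest SD value lay just under the lowest NSD value, so the groups did not overlap, and within batches the SD library was lower by -0.14 and -0.15 on the log2 scale. The log2 fold change was -0.14 with an SE of 0.09 and an edgeR adjusted p of 0.432, and the 95% interval ran from -0.34 to 0.05, or from 0.790-fold to 1.04-fold. With the replicate block the interval was -0.28 to -0.0030, with an unadjusted p of 0.0460 and an adjusted p of 0.178 in edgeR. Of the 6 CA1 pyramidal markers, 3 also lay lower in both SD libraries (Wfs1, Fibcd1 and Man1a, with edgeR adjusted p of 0.0025, 0.0029 and 0.0019 with the replicate block and of 0.124, 0.0909 and 0.0750 without it), and Mpped1 lay higher in both. The summed level of the 6 was 1300 and 1476 CPM in NSD and 1200 and 1329 CPM in SD. The part of these markers in the Chrm1 values was not tested.

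Chrm3 (ENSMUSG00000046159), the M3 receptor, is the longest gene of the group, at chr13:9925522-10410883 on the minus strand. Its values followed the batch rather than the condition: 110 CPM in NSD 1 and 105 in SD 1, against 131 in NSD 2 and 123 in SD 2. The groups overlapped, with means of 120 ± 15.1 (SD, n = 2) in NSD and 114 ± 12.8 in SD and a log2 fold change of -0.07 (95% interval -0.32 to 0.17). Within batches the SD library was lower, by -0.06 and -0.09 on the log2 scale. The log2 fold change became 0.060 without NSD 2 and 0.037 without SD 1, and -0.167 without NSD 1 and -0.174 without SD 2. Each of these fits leaves the batches unequal between the groups.

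Chrm5 (ENSMUSG00000074939), at chr2:112309516-112311114 on the minus strand, encodes M5, best known from midbrain dopamine neurons. It rested on the smallest counts of the 9, 315 and 426 estimated counts for the NSD pair and 575 and 628 for the SD pair. In CPM these were 1.90 and 2.71 in NSD and 3.18 and 3.32 in SD. Each SD value exceeded each NSD value, and the NSD pair was spread more widely than the SD pair. The log2 fold change of 0.50 was the largest of the 9, with an SE of 0.22, an edgeR adjusted p of 0.274 and a 95% interval from -0.01 to 1.00. It was 0.29 without NSD 1 and 0.78 without NSD 2, and with the replicate block the edgeR adjusted p was 0.0824.

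Chrm2 (ENSMUSG00000045613) encodes M2, the presynaptic autoreceptor of cholinergic terminals, which is also found on interneurons, and spans chr6:36365019-36505349 on the plus strand. It had 22.8 and 20.7 CPM in NSD and 24.9 and 22.2 CPM in SD, with overlapping groups and a log2 fold change of 0.12 (95% interval -0.09 to 0.32). Chrm4 (ENSMUSG00000040495) encodes M4, an inhibitory receptor of principal neurons and terminals, and lies at chr2:91757594-91759033 on the plus strand. Its levels were 12.0 and 13.6 CPM in NSD and 13.8 and 14.6 CPM in SD. The lower SD value stood only just above the higher NSD value, and the log2 fold change was 0.15 with an edgeR adjusted p of 0.499 and a 95% interval from -0.08 to 0.38. For both Gi/o-coupled receptors the interval includes 0 and also a rise by more than 1.2-fold, with upper bounds of 1.25-fold for Chrm2 and 1.30-fold for Chrm4.

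Chrna4 (ENSMUSG00000027577) encodes the alpha4 subunit, which forms the acetylcholine binding site of the high-affinity channel together with beta2, and spans chr2:180660173-180685339 on the minus strand. NSD 1 and NSD 2 gave 103.0 and 102.6 CPM and SD 1 and SD 2 gave 121 and 126 CPM. The NSD pools differed by far less than the gap to the SD pools, with means of 103 ± 0.310 (SD, n = 2) and 123 ± 3.48. The log2 fold change was 0.26 with an SE of 0.07, an unadjusted p of 0.00356 and an edgeR adjusted p of 0.0704, and the 95% interval ran from 0.11 to 0.41, or 1.08-fold to 1.33-fold. Chrna4 thus missed the threshold in edgeR, and it passed in DESeq2, with a log2 fold change of 0.29 and an adjusted p of 0.0029. With the replicate block, edgeR gave an adjusted p of 0.0077, and the log2 fold change of 0.2627 fell just short of the 0.2630 that a fold change of 1.2 requires. Within batches the SD library was higher by 0.23 and 0.29 on the log2 scale. The thalamus holds much alpha4, and the summed level of 4 thalamic markers was 49.8 and 67.4 CPM in NSD and 77.6 and 86.4 CPM in SD. Within that list only Slc17a6, the vesicular glutamate transporter VGLUT2, lay higher in both SD libraries (36.0 and 54.0 CPM against 63.1 and 74.8 CPM). Its log2 fold change was 0.62 with an edgeR adjusted p of 0.0878, and of 0.00012 with the replicate block, where it was called. DESeq2 did not call Slc17a6 (adjusted p 0.208). Tcf7l2 (3.86 to 4.82 CPM) and Prkcd (5.38 to 6.49 CPM) overlapped between the groups, and Lef1 (3.55 and 3.72 CPM against 3.16 and 2.34 CPM) lay lower in both SD libraries. The part of these markers in the Chrna4 values was not tested.

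Chrnb2 (ENSMUSG00000027950), at chr3:89653502-89671939 on the minus strand, encodes the beta2 partner. Its levels were 94.1 and 104 CPM in NSD and 104 and 108 CPM in SD, with the higher NSD value nearly touching the lower SD value. The log2 fold change was 0.10 with an edgeR adjusted p of 0.522, and its 95% interval, -0.06 to 0.27, reaches past the value of Chrna4. The level of Chrna4 per kilobase was 1.77 and 1.60 times that of Chrnb2 in the NSD libraries and 1.87 and 1.89 times in the SD libraries. With coding lengths the same ratio was 1.24 and 1.12 in NSD and 1.31 and 1.33 in SD. Both SD ratios exceeded both NSD ratios, an order that the choice of length cannot change. The difference between the changes of the 2 subunits was not tested.

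Because Chrna4 and Chrnb2 form 1 channel and lay higher in both SD libraries, the windows from 250 bases before to 50 bases after their Ensembl canonical transcript starts were read from GRCm39, at chr2:180681067-180681366 and chr3:89671904-89672203, both on the minus strand. Capitals mark GC boxes (GGGCGG on either strand, which Sp1 family factors can bind) and, in Chrnb2 only, the core of a cAMP response element (TGACG on either strand).
Chrna4: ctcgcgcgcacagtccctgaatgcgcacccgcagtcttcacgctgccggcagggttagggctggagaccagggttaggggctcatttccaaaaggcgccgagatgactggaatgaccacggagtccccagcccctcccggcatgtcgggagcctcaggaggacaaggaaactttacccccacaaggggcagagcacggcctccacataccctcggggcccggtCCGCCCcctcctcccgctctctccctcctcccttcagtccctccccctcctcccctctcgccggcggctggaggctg
Chrnb2: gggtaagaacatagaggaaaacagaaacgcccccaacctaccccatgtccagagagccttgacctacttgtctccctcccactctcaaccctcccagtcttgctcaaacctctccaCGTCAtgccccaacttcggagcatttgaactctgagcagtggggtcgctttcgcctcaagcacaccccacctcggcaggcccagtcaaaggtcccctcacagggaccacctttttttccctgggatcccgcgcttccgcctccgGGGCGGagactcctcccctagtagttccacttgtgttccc
The Chrna4 window held 20 CpG dinucleotides and the Chrnb2 window 11, where the median of 21757 windows of the same kind was 11.

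Over the 9 genes, the GC box was in the windows of Chrm2, Chrna4, Chrna5, Chrna7 and Chrnb2, with 4 copies in Chrna5, and in 42.5% of all windows. The core TGACG was in Chrnb2 alone and in 22.6% of all windows, and the letters TATAAA were in Chrm4 alone and in 13.2%. The full cAMP response element TGACGTCA, which contains the core, was in none of the 9 and in 2.45% of all windows. The EGR element GCGTGGGCG, whose last 5 letters can form part of a GC box, was in none of the 9 and in 0.754% of all windows, and the left part of the RE1 element of the REST repressor, TTCAGCACC, was in none of the 9 and in 0.308%. All motifs were searched on both strands. The windows of Chrm4 and Chrm5 lie around the start of the coding sequence, since their models begin there.

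Chrna5 (ENSMUSG00000035594), the accessory alpha5 subunit at chr9:54888164-54915063 on the plus strand, was the steadiest of the nicotinic genes across the 4 libraries relative to its mean. It had 14.6 and 15.3 CPM in NSD and 15.6 and 15.1 CPM in SD, with a log2 fold change of 0.04 and a 95% interval from -0.16 to 0.24. Chrna7 (ENSMUSG00000030525), which encodes the subunit of the alpha7 channel, lies at chr7:62748440-62862317 on the minus strand. Its values were 20.8 and 23.8 CPM in NSD and 21.4 and 20.1 CPM in SD, and the batches moved in opposite directions, by 0.04 and -0.24 on the log2 scale. The log2 fold change was -0.10, with a 95% interval from -0.31 to 0.11, and nearly 0 (-0.0037) without NSD 2.

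**Figure D4:**
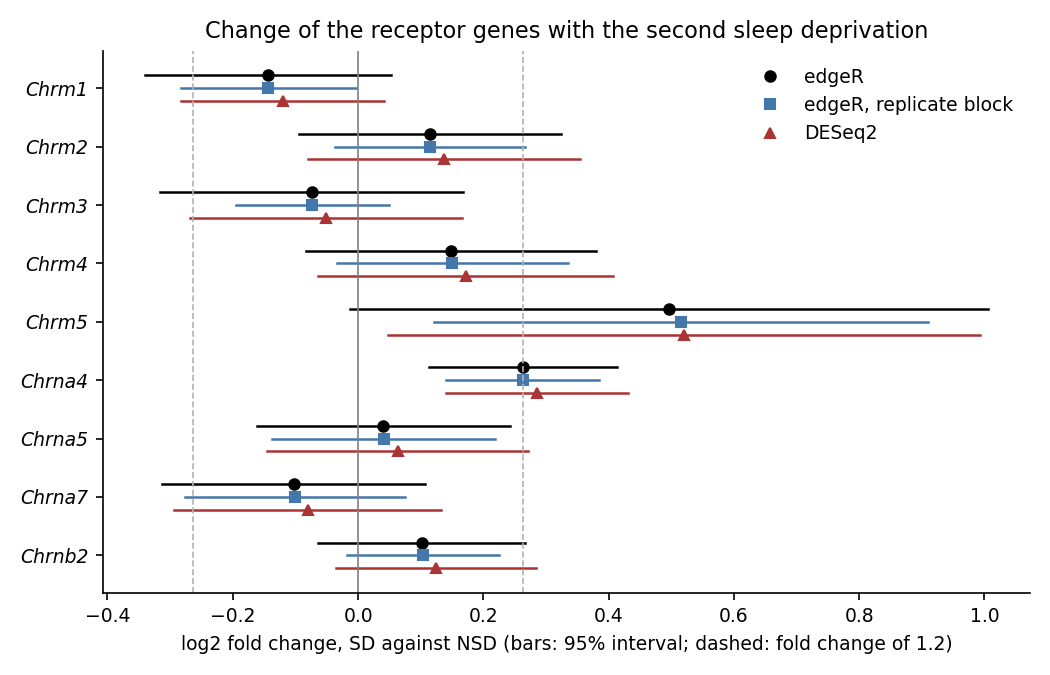
Log2 fold change of each receptor gene, SD against NSD, with its 95% interval from edgeR (black), edgeR with the replicate block (blue) and DESeq2 (red); dashed lines mark a fold change of 1.2. The Chrna4 interval of all 3 fits lies above 0, with edgeR values of 0.11 to 0.41, and the Chrm5 interval is the widest.

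Some members overlap other genes, whose reads could be assigned to either. All shared exon bases below were counted in an annotation later than that of the table. Chrnb2 shares 1365 exon bases with Adar, an RNA editing enzyme on the opposite strand with 199 to 233 CPM. The kit keeps strand, and whether the counting used it is not given in the sources used here. Adar had a log2 fold change of 0.14 with an edgeR adjusted p of 0.419. Chrm2 shares 1121 exon bases with the antisense 9330158H04Rik (0.497 to 0.808 CPM), and Chrna5 shares 790 exon bases with Chrna3 on the other strand (3.23 to 4.36 CPM). Chrm1 shares 329 exon bases with the antisense Gm54900, which is not in the deposited table.

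A further 5 annotated genes of the table lie on the sense strand within the spans of Chrm3 or Chrna7 without sharing an exon base. Gm47405, in Chrm3, gave 2.17 and 1.28 CPM in NSD 1 and NSD 2 and 0.587 and 0.238 CPM in SD 1 and SD 2, a log2 fold change of -2.06 with an SE of 0.47 and an edgeR adjusted p of 0.0554, and of 0.00052 with the replicate block. Gm47411 and 9330159N22Rik in Chrm3 and Gm44741 in Chrna7, named after their values were seen, also had no SD value as high as an NSD value, a pattern that 27.5% of all tested genes had, and Gm47404 in Chrm3 did not. With the replicate block Gm47411 had a log2 fold change of -1.996 and an edgeR adjusted p of 0.0073, against 0.111 without the block. The edgeR adjusted p of Gm44741 with the block was 0.1225. The antisense Gm26861 in Chrm3 lay lower in both SD libraries too (0.211 and 0.121 CPM against 0 and 0.0370 CPM), and neither it nor 9330159N22Rik passed the filter for testing. The exonic counts of Chrm3 and Chrna7 themselves had intervals that include 0, as given above.

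The other cholinergic genes were taken from 5 lists of 68 genes in all, of which 64 are in the table and 60 were tested. edgeR called 0 of them higher and 1 lower, beside 3.10% of all genes called. With the replicate block 3 were called higher and 2 lower, where 11.5% of all genes were called, and with DESeq2 4 higher and 1 lower, where 8.79% of all genes were. The 1 call was Chka, choline kinase alpha, which phosphorylates choline for membrane lipid synthesis: it had 30.6 and 27.0 CPM in NSD and 21.8 and 21.8 CPM in SD, a log2 fold change of -0.40 with an edgeR adjusted p of 0.0476. Chka was also called with the replicate block (log2 fold change -0.40, edgeR adjusted p 0.0027) and with DESeq2 (-0.38, adjusted p 0.0058). The edgeR call was lost, with 0 genes called lower, without NSD 1, without SD 2, with DESeq2's size factors in edgeR and with each of the 3 other gene filters. Its relative Chkb had 8.76 and 7.03 CPM in NSD and 6.30 and 5.75 CPM in SD, with an edgeR adjusted p of 0.189, and of 0.0413 with the replicate block.

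Among the 12 other nicotinic subunits, 8 are in the table, 6 were tested and 0 were called by edgeR, by edgeR with the block or by DESeq2, and 0 had an unadjusted p under 0.05. Their levels were low. Chrna3, the ganglionic alpha subunit, had 3.23 to 4.36 CPM and Chrna2 2.06 to 3.20 CPM, and in neither did the groups separate. The chaperones and prototoxins, which control assembly and gating of nicotinic channels, had 9 tested genes with a median log2 fold change of 0.01. Lypd1, a prototoxin that dampens nicotinic channels, had 73.2 and 86.1 CPM in NSD and 101 and 104 CPM in SD, a log2 fold change of 0.36 with an edgeR adjusted p of 0.0611, and of 0.0013 with the replicate block, where it was called. Lynx1, a prototoxin that binds alpha4-containing and alpha7 channels, had 414 and 433 CPM in NSD and 498 and 505 CPM in SD, with a log2 fold change of 0.24 and an edgeR adjusted p of 0.149. With the replicate block the edgeR adjusted p of Lynx1 was 0.0322 at a fold change under 1.2, and DESeq2 called it, with a log2 fold change of 0.27 and an adjusted p of 0.0027. For both prototoxins the SD libraries lay above the NSD libraries.

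In the list of acetylcholine synthesis, transport and breakdown, the median log2 fold change of 9 tested genes was -0.07. Ache, the acetylcholinesterase that ends the signal, had 62.1 and 61.3 CPM in NSD and 61.0 and 56.5 CPM in SD, with a log2 fold change of -0.07. Slc44a1, a choline transporter-like protein, had 51.1 to 57.5 CPM and a log2 fold change of -0.10. Slc5a7, the high-affinity choline transporter of cholinergic terminals, stood at 0.426 to 0.576 CPM.

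The Gq pathway of M1, M3 and M5 showed no call in any of the 3 fits and no unadjusted p under 0.05 in edgeR among 18 genes, with a median log2 fold change of -0.0046. Itpr1, the IP3 receptor that releases calcium, had 1230 and 1260 CPM in NSD and 1285 and 1323 CPM in SD, and Prkcb, a protein kinase C, had 996 to 1100 CPM with overlapping groups. The Gi/o pathway of M2 and M4 had a median log2 fold change of 0.10 over 18 genes, of which 10 lay higher in both SD libraries (22.0% of all genes did) and 1 lower (27.5% of all genes), and 7 had an unadjusted p under 0.05 in edgeR (19.1% of all genes). None was called by edgeR, and 2 were called higher with the replicate block and with DESeq2, beside 11.5% and 8.79% of all genes called in either direction. These were the receptor kinases Grk3, with 152 and 139 CPM in NSD and 181 and 173 CPM in SD (log2 fold change 0.28, edgeR adjusted p 0.0866, with the block 0.0075), and Grk5, with 20.7 and 20.0 CPM in NSD and 28.5 and 23.5 CPM in SD (log2 fold change 0.35, edgeR adjusted p 0.102, with the block 0.0092). G protein-coupled receptor kinases phosphorylate active receptors, muscarinic ones among many others, before arrestin binds. The receptor kinases and arrestins of this list are therefore not particular to Gi/o-coupled receptors. Grk2, Grk3, Grk5 and Arrb1 were among the 10 genes that lay higher in both SD libraries. No G protein or GIRK gene of the list was called in any of the 3 fits. Arrb1, encoding beta-arrestin 1, had 434 and 395 CPM in NSD and 496 and 463 CPM in SD with an edgeR adjusted p of 0.253. Its relative Arrb2 was the 1 lower gene, with 25.02 and 26.45 CPM in NSD and 22.08 and 20.84 CPM in SD. The log2 fold change of Arrb2 was -0.26. Its edgeR adjusted p was 0.114, and 0.0293 with the replicate block, where it was not called. Gnao1, the alpha subunit of Go, had 585 to 618 CPM with a log2 fold change of 0.05.

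**Figure D5:**
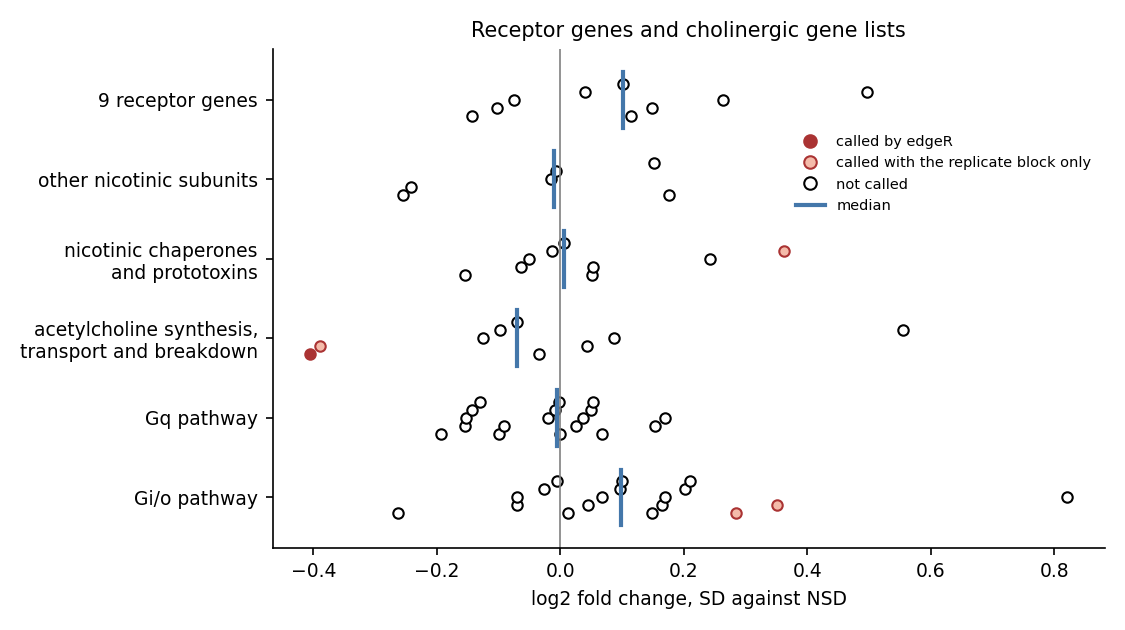
Log2 fold change, SD against NSD, of the 9 receptor genes and of the tested genes of the 5 cholinergic lists, with a blue bar at each median; filled points were called by edgeR and pale red points only with the replicate block. The medians lie between -0.07 and 0.10, and Chka is the 1 filled point.

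Markers of other cells moved with the condition in part. The 6 endothelial markers summed to 37.0 and 51.3 CPM in NSD and 30.3 and 20.1 CPM in SD. Of the 6, 5 were lower in both SD libraries, as were 27.5% of all genes. edgeR called 0 of the 6, beside 3.10% of all genes. The replicate block called 5 and DESeq2 4, beside 11.5% and 8.79% of all genes. The sums of the 10 interneuron markers were 917 and 883 CPM in NSD and 904 and 820 CPM in SD, those of 5 astrocyte markers were 414 to 463 CPM, those of 5 oligodendrocyte markers 1399 to 1683 CPM and those of 5 microglial markers 54.8 to 71.9 CPM, each with overlapping groups. The 5 dentate granule cell markers summed to 93.3 and 85.0 CPM in NSD and 68.8 and 76.5 CPM in SD, where Lct was the 1 marker lower in both SD libraries (52.5 and 53.3 CPM against 31.7 and 43.0 CPM). The 6 markers of CA2 and CA3 summed to 88.7 and 87.6 CPM in NSD and 80.7 and 83.6 CPM in SD, with Rgs14 lower in both SD libraries (54.5 and 56.7 CPM against 45.2 and 46.2 CPM) and Amigo2 and Grik4 higher in both. The 5 markers of deep cortical layers summed to 85.2 and 76.1 CPM in NSD and 86.4 and 86.2 CPM in SD, with Ccn2 (9.19 and 8.11 CPM against 12.0 and 11.0 CPM) and Tle4 higher in both SD libraries, and Ccn2 called with the replicate block and with DESeq2. The 5 excitatory markers summed to 9450 to 10227 CPM, and Neurod6, a transcription factor of pyramidal neurons, lay lower in both SD libraries (123 and 152 CPM against 103 and 113 CPM). The part of any of these in the receptor values was not tested.

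The genes whose pattern over the 4 libraries came closest to 1 muscarinic and 1 nicotinic member, those with the smallest p in each family, were found by the Euclidean distance of centred log2 CPM among 8627 protein-coding genes with at least 10 CPM on average. For Chrm5 these were Gfra1 (distance 0.0582), Tns1 (0.0748) and Etv1 (0.0912), with Gfra1 at 52.0 and 72.2 CPM in NSD and 87.5 and 86.8 CPM in SD. For Chrna4 they were Kansl3 (0.0069), Cnih4 (0.0072) and Relt (0.0139), with Kansl3 at 64.4 and 64.0 CPM in NSD and 75.3 and 78.9 CPM in SD. With 4 libraries and that many candidates, close patterns are a description only.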

How the data were processed

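fosTRAP-seq libraries of 2 NSD and 2 SD pools were analysed. Per the labels and the study's methods, the authors prepared ribosome-bound RNA with a stranded total RNA kit with rRNA removal, aligned reads with STAR to mm39 (GRCm39) and deposited, for each gene, an estimated count from Partek's expectation-maximization model, without normalization; 55.6% of the genes have a value that is not whole. These expected counts were rounded. Genes above 5 counts in all 4 libraries (22338) were tested with edgeR 4.0.16 (R 4.3.3; TMM, quasi-likelihood, condition only, Benjamini-Hochberg), with calls at adjusted p under 0.05 and fold change over 1.2. DESeq2 1.42.0, its size factors, other gene filters, a replicate block and each library left out were alternatives. Intervals are 95%; log2 CPM used a prior count of 2. Exon lengths, transcript starts and promoter windows came from GENCODE and the GRCm39 genome. The fits were tested on simulated counts.

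The labels' batch number pairs the libraries; over genes, the deviations from the group mean of the NSD and SD library of a batch correlated with r = 0.178. The text names the 9 receptors, genes within their spans at 1 CPM or more, called list genes and the 2 most abundant of each list, the top marker of each cell type with those a range needs, and the 3 most similar genes of 2 members. Members and lists were chosen with earlier results of these data known. The 2 libraries of a group are separate pools of 5 mice, and p-values measure the spread between such pools. Results of some listed genes are not reported here.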

Additional observations from a re-analysis of the deposited data

How the results depend on the processing

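Of 90 alternative values of the receptors' log2 fold changes, 87 kept the direction and the side of the threshold. Chrna4 passed with DESeq2 (0.29), which called 1 of the 9, and Chrm3 turned positive without NSD 2 (0.060) and without SD 1 (0.037). Leaving out each library gave -0.19 to -0.07 for Chrm1, 0.03 to 0.22 for Chrm2, -0.17 to 0.060 for Chrm3, 0.09 to 0.24 for Chrm4, 0.29 to 0.78 for Chrm5, 0.25 to 0.30 for Chrna4, 0.02 to 0.08 for Chrna5, -0.17 to -0.0037 for Chrna7 and 0.06 to 0.17 for Chrnb2, with 0 of the 9 called each time. With a library left out, the lone library of a group is assumed to vary like the others. With the replicate block the log2 fold changes were -0.14 (Chrm1), 0.11 (Chrm2), -0.07 (Chrm3), 0.15 (Chrm4), 0.52 (Chrm5), 0.26 (Chrna4), 0.04 (Chrna5), -0.10 (Chrna7) and 0.10 (Chrnb2), with 0 called. Without a fold change threshold, chosen after seeing the data, 0 passed in edgeR and 1 with the block.

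Over all genes, edgeR called 172 higher and 520 lower, the block 668 and 1891, DESeq2 669 and 1294, no count filter 50 and 80, protein-coding genes only 51 and 39, and filterByExpr 1 and 0. Leaving out a library gave 144 to 321 higher and 87 (without NSD 1) to 1953 (without SD 1) lower. Of the other cholinergic genes, the block called 3 higher and 2 lower, DESeq2 4 higher, each library left out 0 to 2 higher and 0 to 1 lower, and DESeq2's size factors, no count filter, filterByExpr and protein-coding genes only 0 lower. The cause was not tested.

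With the longest transcript as length, mean levels per kilobase became 3.66 (Chrm2), 27.1 (Chrm3), 24.7 (Chrna4), 2.63 (Chrna5), 3.83 (Chrna7) and 16.0 (Chrnb2), and with the coding length 200.5 (Chrm1), 16.2 (Chrm2), 66.4 (Chrm3), 58.8 (Chrna4), 10.8 (Chrna5), 14.3 (Chrna7) and 47.0 (Chrnb2). Family shares with the longest transcript were 46.5% (Chrm1), 34.5% (Chrm3), 12.0% (Chrm4), 52.3% (Chrna4), 5.61% (Chrna5), 8.17% (Chrna7) and 33.9% (Chrnb2), and with the coding length 68.1% (Chrm1), 5.55% (Chrm2), 22.6% (Chrm3), 3.20% (Chrm4), 0.595% (Chrm5), 44.9% (Chrna4), 8.28% (Chrna5), 11.0% (Chrna7) and 35.9% (Chrnb2).

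With 2 libraries per group the precision is set by the spread between pools; the smallest counts were those of Chrm5, 315 to 628.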
